A study of Arabidopsis thaliana with 6 samples.

Results

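The genes described here are the ALDH aldehyde dehydrogenases of Arabidopsis thaliana measured in rosettes of wild type Col-0 plants and of pmr5, a mutant in the same background. They were chosen by name, as the probe sets paired with exactly 1 gene whose symbol begins with ALDH, which gave 8 genes of the 22746 probe sets tested. Each of the 8 genes had 1 probe set, so no choice between probe sets was needed. The members were ALDH2C4 (AT3G24503), ALDH3F1 (AT4G36250), ALDH6B2 (AT2G14170), ALDH7B4 (AT1G54100), ALDH10A8 (AT1G74920), ALDH10A9 (AT3G48170), ALDH11A3 (AT2G24270) and ALDH22A1 (AT3G66658). They belong to families 2, 3, 6, 7, 10, 11 and 22 of the superfamily. Of 16 superfamily loci listed for this comparison, the other 8 were not analysed here.

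The pmr5 mutant was isolated for resistance to powdery mildew, and its cell walls are known for an altered pectin content. Untreated rosettes of both genotypes were collected at 3 weeks of age, and total RNA was hybridised to 1-colour Affymetrix arrays, with 3 arrays of Col-0 and 3 of pmr5. The labels call the arrays of a genotype biological replicates. They name neither the pmr5 allele nor the number of plants behind an array, and they do not say whether replicates came from separate sowings. The p-values of the genotype comparison thus set the difference against the spread between these arrays only. The transcript of PMR5 itself was not analysed here, since no probe set was named for it.

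Aldehyde dehydrogenases oxidise aldehydes to the matching carboxylic acids with NAD or NADP as the electron acceptor. Aldehydes arise in plants as intermediates of amino acid, polyamine and phenylpropanoid metabolism and from the peroxidation of lipids, and in excess they damage proteins. Several plant members are known for a higher transcript level under drought, salt or oxidative stress. The family number in a name groups enzymes of like sequence, and members of different families act on different aldehydes and lie in different compartments.

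Values are log2 signals, on which 1 unit is a doubling of the probe set's signal. The array medians lay between 4.68 and 4.73 in Col-0 and between 4.71 and 4.78 in pmr5. On the first principal component, which held 37.5% of the variance, Col-0 replicate 1 scored 52.3 and the other arrays between -30.5 and 12.2. The leaf markers RCA, LHCB4.1 and LHCB4.2, which were 3 of 8 listed markers, read 14.25 or more on every array. The root marker EXPA7 lay at the table's lowest value of 2.19 on all 6 arrays, and PYK10, a glucosidase gene known from roots, read from 3.28 to 5.86. In whole rosettes fewer cells of a type and less RNA per cell cannot be told apart.

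On no array did an ALDH gene lie at that lowest value. By mean log2 signal over the 6 arrays they ran from 6.37 for ALDH22A1 to 11.31 for ALDH11A3. ALDH22A1 stood at the 64.9th percentile of all probe sets tested, ALDH10A9 at the 80.6th, ALDH6B2 at the 82.0th, ALDH3F1 at the 89.8th and ALDH2C4 at the 91.5th. ALDH7B4 stood at the 92.5th percentile, ALDH10A8 at the 93.8th and ALDH11A3 at the 97.1st. These positions place each signal among all signals. Probe sets bind with different strength, so they give no order of transcript amounts between the genes.

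**Figure D1:**
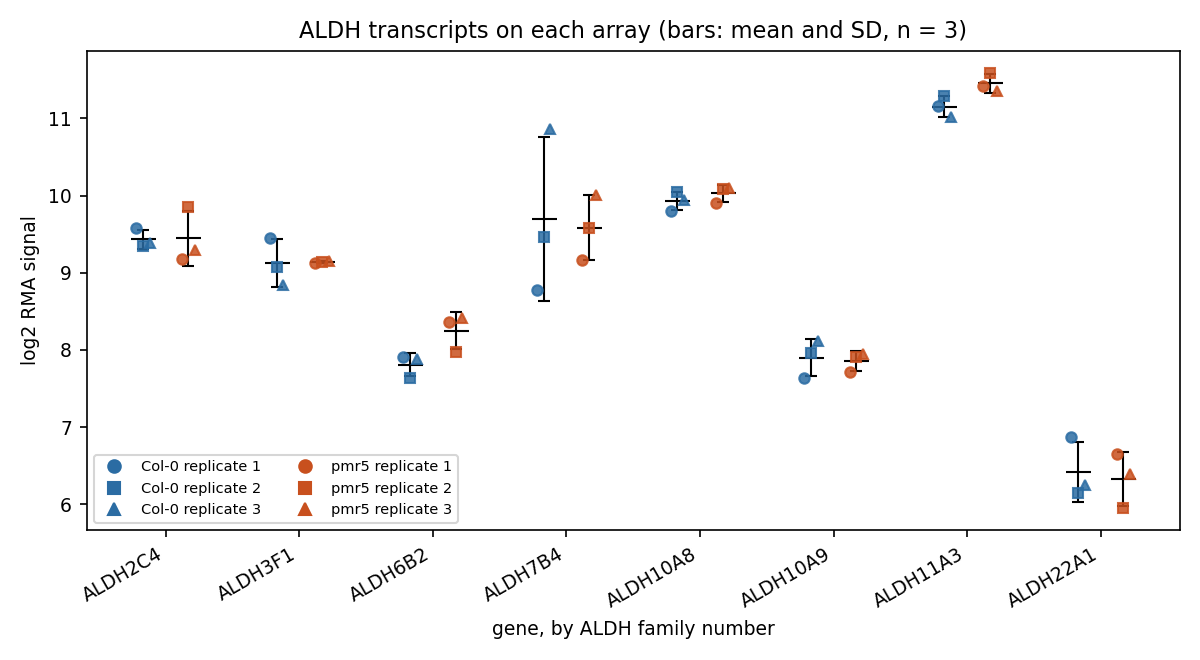
Log2 RMA signal of the 8 ALDH genes on each array, ordered by family number, with Col-0 in blue, pmr5 in orange and a symbol for each replicate number. Black bars are the mean and SD of 3 arrays. ALDH7B4 spans from 8.78 to 10.86 within Col-0, while ALDH6B2 and ALDH11A3 have all pmr5 points above all Col-0 points.

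ALDH6B2 encodes methylmalonate semialdehyde dehydrogenase, a mitochondrial enzyme of valine breakdown. Its log2 signals were 7.91, 7.64 and 7.88 in Col-0 and 8.36, 7.97 and 8.42 in pmr5. Every pmr5 array lay above every Col-0 array, with a gap of 0.07 between pmr5 replicate 2 and Col-0 replicate 1. The mean signal was 7.81 ± 0.15 for Col-0 against 8.25 ± 0.24 for pmr5 (SD, n = 3), which is 0.44 log2 units (SE 0.16) or 1.36-fold higher in the mutant. The 95% interval of the fold ran from 1.02 to 1.81 before any adjustment, and the adjusted p in limma over all probe sets was 1.

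ALDH11A3 encodes the cytosolic non-phosphorylating glyceraldehyde-3-phosphate dehydrogenase, which makes NADPH in a side step of glycolysis. Its log2 signals were 11.16, 11.29 and 11.01 in Col-0 and 11.42, 11.59 and 11.35 in pmr5. Here too the groups did not overlap, with a gap of 0.07 between pmr5 replicate 3 and Col-0 replicate 2. Its mean was 11.15 ± 0.14 for Col-0 against 11.46 ± 0.12 for pmr5 (SD, n = 3), 0.30 log2 units (SE 0.10) or 1.23-fold higher in the mutant. With array weights the difference was 0.18. The interval of the fold was 1.02 to 1.49, again with an adjusted p in limma of 1.

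No overlap between the genotypes was thus seen in 2 of 8 ALDH genes, or 25%, both higher in pmr5. Among the 16186 probe sets that no array read at the lowest value it was seen in 3.35% with pmr5 higher and in 3.09% with pmr5 lower, or 6.44% in all. Of these 16186, 2433 had a mean signal between 2 and 3, so the shares include probe sets just above the lowest value. Both gaps depended on the scaling of the arrays. With the arrays centred on their medians, which shifted the median difference of all probe sets by -0.04, 0 of 8 genes were free of overlap, while ALDH6B2 still differed by 0.40 and ALDH11A3 by 0.26. The share of the 16186 probe sets without overlap was 8.57% in that setting. Quantile normalization left both genes free of overlap, with a share of 7.93%. Leaving out an array cannot make separate groups overlap, so the 2 genes had to stay free of overlap with each array left out in turn. They were joined by ALDH3F1 and ALDH10A9 without Col-0 replicate 1, ALDH10A8 without pmr5 replicate 1, and ALDH2C4 without pmr5 replicate 2. The share over those 16186 probe sets could likewise only stay or rise, and it was 13.4%, 12% and 27.9% without these 3 arrays. It was 12.1%, 17.1% and 10.1% without Col-0 replicate 2, Col-0 replicate 3 and pmr5 replicate 3.

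Guard cell markers were set beside these genes. Against 0% of all 22746 probe sets, limma called 0 of the 3 markers measured of 5 listed, each with an adjusted p of 1. Their summed linear signal ran from 1088 to 1371 in Col-0 and from 1675 to 1900 in pmr5, and AT1G22690 alone made up at least 95.3% of it on every array. AT1G22690 and FMA were higher in pmr5 with no overlap between the genotypes, as were 3.35% of the 16186 probe sets, while SPCH, a regulator of the stomatal lineage, lay at 2.19 on 5 arrays and at 2.27 on Col-0 replicate 1. The mean signal of the spiked poly-A controls ran from 6.59 to 6.83 in Col-0 and from 6.04 to 6.52 in pmr5. The part of these markers and spikes in the differences of ALDH6B2 and ALDH11A3 was not tested.

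**Figure D2:**
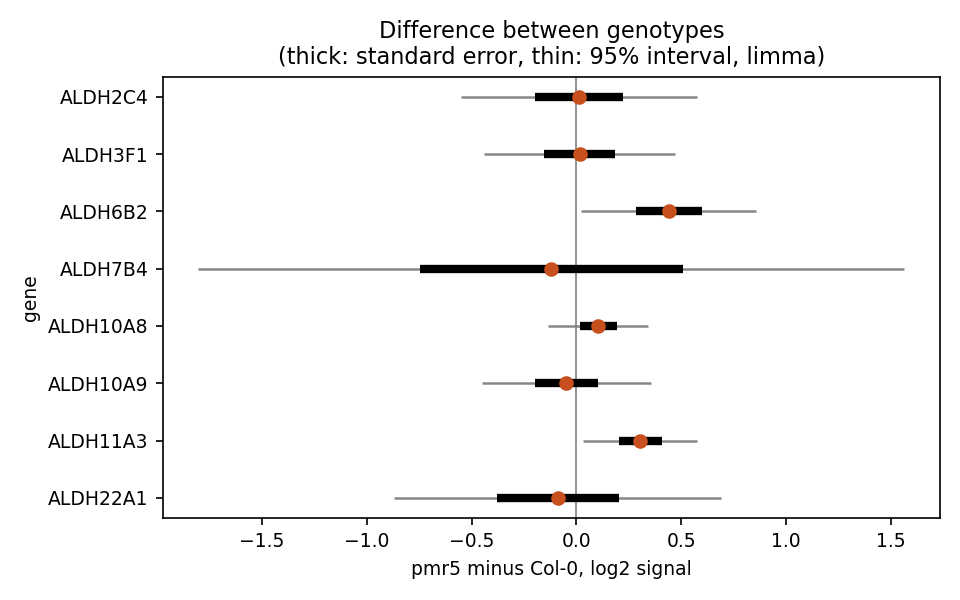
Difference in log2 signal, pmr5 minus Col-0, for the 8 ALDH genes, with the standard error as a thick bar and the 95% interval, unadjusted, as a thin line, both from limma with 3 arrays a genotype. The intervals of ALDH6B2 and ALDH11A3 lie above 0, those of the other 6 genes include it, and that of ALDH7B4 is the widest, from -1.80 to 1.56.

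In the comparison of pmr5 with Col-0, which asked what differs in untreated rosettes, limma called 0 of 8 ALDH genes at an adjusted p under 0.05, against 0% of all 22746 probe sets. At an unadjusted p under 0.05 there were 2 ALDH genes, ALDH6B2 and ALDH11A3, beside 591 probe sets or 2.6% of all. The mean was higher in pmr5 for 5 genes and lower for 3, and the reverse, 3 higher and 5 lower, with arrays centred on their medians. The median difference of the 8 genes was 0.01, beside a median of 0 over all probe sets. In absolute size the median was 0.10 for the ALDH genes and 0.12 for the 16186 probe sets never at the lowest value, some of them just above it.

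ALDH7B4, a member of the antiquitin family whose transcript is known to rise under osmotic and dehydration stress, varied most between replicates. Its log2 signals were 8.78, 9.46 and 10.86 in Col-0 and 9.16, 9.58 and 10.004 in pmr5. The Col-0 arrays held both the highest and the lowest value, 4.24-fold apart, and the pmr5 arrays, 1.80-fold apart, lay between them. The means of 9.70 ± 1.06 and 9.58 ± 0.42 (SD, n = 3) differed by -0.12 (SE 0.63), and the 95% interval of the fold, from 0.287 to 2.95, covers a rise or a fall of more than 2-fold. Without Col-0 replicate 3 the difference was 0.46, and without Col-0 replicate 1 it was -0.58.

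ALDH10A8 and ALDH10A9 make up family 10, the aminoaldehyde dehydrogenases, which are related to the betaine aldehyde dehydrogenases of other plants and act on aldehydes from polyamine breakdown. ALDH10A8 had the narrowest spread of the 8 genes. Its log2 signals were 9.81, 10.04 and 9.94 in Col-0 and 9.91, 10.09 and 10.10 in pmr5, so the groups overlapped, and they differed by 0.10 (SE 0.09). The interval of the fold, 0.911 to 1.27, was the narrowest of the 8 genes. For ALDH10A9 the signals were 7.64, 7.95 and 8.11 in Col-0 and 7.71, 7.90 and 7.95 in pmr5. All pmr5 arrays lay within the Col-0 range, and the difference was -0.05 (SE 0.15) with a fold of 0.731 to 1.28.

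ALDH2C4, known as REF1, oxidises coniferaldehyde and sinapaldehyde to ferulic and sinapic acid, the precursors of sinapate esters that shield leaves from ultraviolet light. Its log2 signals were 9.57, 9.35 and 9.38 in Col-0 and 9.18, 9.86 and 9.30 in pmr5. The mutant arrays enclosed the wild type ones, since pmr5 replicate 2 was the highest array and pmr5 replicate 1 the lowest. The genotype means of 9.43 ± 0.12 and 9.44 ± 0.36 (SD, n = 3) differed by 0.01 (SE 0.21). Without pmr5 replicate 2 the difference was -0.20.

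ALDH3F1, of a family known to oxidise long-chain and other lipid-derived aldehydes, was the member with the largest ratio of the SD in one genotype to that in the other. Its log2 signals were 9.45, 9.08 and 8.84 in Col-0 but 9.12, 9.14 and 9.15 in pmr5. The SD was 0.31 in Col-0 and 0.01 in pmr5, and the range was 0.61 against 0.03. With 3 arrays a genotype, this contrast of spreads was not tested. The means differed by 0.01 (SE 0.17), less than the spread in Col-0.

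ALDH22A1 belongs to a family described from plants, and its substrate is not well known. The signals were 6.87, 6.14 and 6.25 in Col-0 and 6.65, 5.95 and 6.39 in pmr5. Replicate 1 was the highest and replicate 2 the lowest array in each genotype, and the groups overlapped widely. The difference was -0.09 (SE 0.29), with a fold of 0.547 to 1.61, and it was 0.13 without Col-0 replicate 1.

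The spread between replicates was taken as the residual SD, which is the SD of the arrays around their genotype means. It was 0.81 log2 units for ALDH7B4, at the 95.6th percentile of the 16186 probe sets never at the lowest value, whose median was 0.23. Those probe sets include 2433 with a mean signal between 2 and 3, just above the lowest value, whose own median was 0.08. ALDH22A1 followed with 0.37 at the 76.4th percentile and ALDH2C4 with 0.27 at the 60.2nd. The other 5 genes were below the median, with ALDH3F1 at 0.22, ALDH6B2 at 0.20, ALDH10A9 at 0.19, ALDH11A3 at 0.13 and ALDH10A8 at 0.11. The lowest of these, ALDH10A8, stood at the 19.6th percentile. Over the 8 genes the median residual SD was 0.21, and only ALDH7B4 among them was above 0.58, the value that 90% of the probe sets did not reach.

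**Figure D3:**
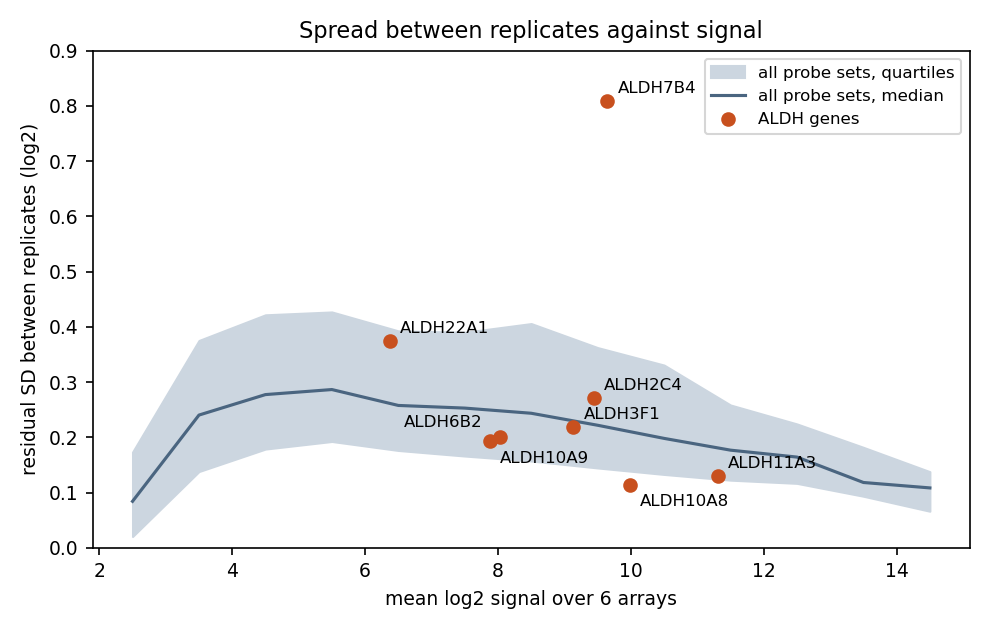
Residual SD between replicates against the mean log2 signal over 6 arrays. Orange points are the 8 ALDH genes, and the line and band are the median and quartiles of the probe sets never at the lowest value, in bins of 1 log2 unit. ALDH7B4 at 0.81 is far above the band, ALDH10A8 at 0.11 just below it.

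The Col-0 arrays that set the spread of ALDH7B4 were also at the ends of the range for other members. Col-0 replicate 1 had the lowest signal of ALDH7B4, ALDH10A8 and ALDH10A9 and the highest of ALDH3F1 and ALDH22A1. Col-0 replicate 3 had the highest signal of ALDH7B4 and ALDH10A9 and the lowest of ALDH3F1 and ALDH11A3. Of the 28 pairs of members, 4 had a Pearson r above 0.5 over the 6 arrays and 5 had one below -0.5.

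The pair most alike was ALDH7B4 and ALDH10A9, with a Pearson r of 0.92 (exact permutation p = 0.0111) and a Spearman rho of 0.83 (exact permutation p = 0.0583). Adjusted over the 28 pairs these were 0.311 and 0.831. The smallest possible p was 0.00278, so 1 pair alone could not pass the threshold over 28 pairs. The adjusted values thus cannot decide on this relation. Without the arrays farthest from the median of ALDH7B4, Col-0 replicates 1 and 3, r was 0.77 over the 4 left. ALDH3F1 ran opposite to ALDH7B4 with an r of -0.86 (exact permutation p = 0.0597, adjusted 0.418) and a rho of -0.49 (exact permutation p = 0.356, adjusted 0.831). Without the same 2 Col-0 arrays the r was 0.49, so this relation rested on them.

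By signal over the 6 arrays, the named probe sets most like ALDH7B4 were AT1G65820 with an r of 0.994, the lectin gene EULS3 with 0.992 and AT4G18950 with 0.982. AT1G65820 read 9.47, 9.85 and 10.60 in Col-0 and 9.71, 9.97 and 10.24 in pmr5, the same order of arrays as ALDH7B4. EULS3 ran from 6.003 on Col-0 replicate 1 to 7.63 on Col-0 replicate 3. Of 15898 varying probe sets, 247 or 1.55% had an r of 0.9 or more with ALDH7B4.

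**Figure D4:**
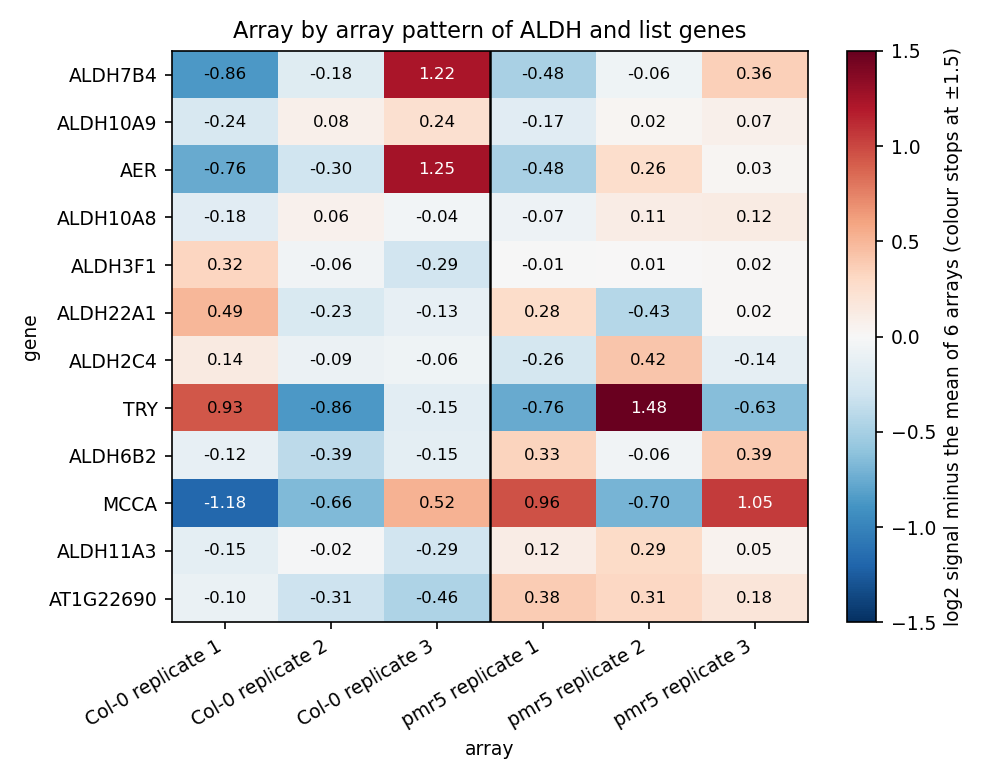
Log2 signal minus the mean of the 6 arrays, for the 8 ALDH genes and 4 genes set beside them, with arrays in columns and the genotypes divided by a line. Blue is below and red above the gene's mean. ALDH7B4 and AER are lowest on Col-0 replicate 1 (-0.86 and -0.76) and highest on Col-0 replicate 3 (1.22 and 1.25), and ALDH2C4 and TRY are highest on pmr5 replicate 2 (0.42 and 1.48).

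Genes of pathways that make or use aldehydes were set beside the ALDH genes by lists of loci. Of the 11 that were measured limma called 0 in either direction, against 0% of all 22746 probe sets. Of 9 listed enzymes that handle reactive aldehydes by other routes, AER and AOR were measured, and their median difference was -0.11. AER, an NADPH-dependent 2-alkenal reductase, read 7.499, 7.96 and 9.50 in Col-0 and 7.78, 8.52 and 8.29 in pmr5. As for ALDH7B4, Col-0 replicate 1 was lowest and Col-0 replicate 3 highest, and the genotypes differed by -0.13 (SE 0.61). The r of ALDH7B4 with AER was 0.95 (exact permutation p = 0.00556) and the rho 0.94 (exact permutation p = 0.0167). Over the 144 pairs of an ALDH gene with a list gene these became 0.4 and 0.686, and r was 0.68 without Col-0 replicates 1 and 3.

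Of 7 listed genes of branched-chain amino acid breakdown, which includes the valine route of ALDH6B2, 3 were measured, namely MCCA, MCCB and IVD. Their median difference of 0.19 was that of MCCB. MCCA, a subunit of methylcrotonyl-CoA carboxylase in leucine breakdown, read 5.85, 6.37 and 7.55 in Col-0 and 7.99, 6.33 and 8.08 in pmr5. Replicates 1 and 3 of pmr5 were above all Col-0 arrays, and pmr5 replicate 2 was the lowest mutant array, as it was for ALDH6B2. The difference was 0.88 (SE 0.72). MCCB, for the other subunit, differed by 0.19 (SE 0.25), and IVD, for isovaleryl-CoA dehydrogenase, had a difference of -0.02 (SE 0.36). ALDH6B2 and MCCA had an r of 0.76 (exact permutation p = 0.114, adjusted 0.764) and a rho of 0.54 (exact permutation p = 0.297, adjusted 0.944). The r was 0.02 without pmr5 replicates 1 and 3. Genes outside this list went as far with ALDH6B2. Its r was 0.90 with the leaf marker LHCB4.2 (exact permutation p = 0.0333, adjusted 0.6) and -0.80 with AOR (exact permutation p = 0.0319, adjusted 0.6). The rho was 0.54 with LHCB4.2 and -0.71 with AOR (exact permutation p = 0.297 and 0.136). Without pmr5 replicates 1 and 3 the r was 0.26 with LHCB4.2 and -0.11 with AOR, so these relations rested on the same 2 arrays.

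GAPC2, the only measured gene of 6 listed phosphorylating glyceraldehyde-3-phosphate dehydrogenases, which act on the same substrate as ALDH11A3, differed by -0.01 (SE 0.09). It read 13.07, 13.13 and 13.13 in Col-0 and 13.26, 12.93 and 13.10 in pmr5, with overlap between the groups. In the phenylpropanoid and sinapate list HCT, the hydroxycinnamoyl transferase, was the only 1 of 12 measured and differed by 0.11 (SE 0.21).

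Of 6 proline genes 2 were measured. The ornithine aminotransferase gene DELTA-OAT differed by 0.30 (SE 0.25) and AT5G38710 by 0.70 (SE 0.54). Of 5 genes of ethanolic fermentation and acetate use, PDC2, for a pyruvate decarboxylase, differed by -0.51 (SE 0.46) and ACS, for acetyl-CoA synthetase, by -0.19 (SE 0.18). None of the 4 listed GABA shunt genes or the 5 polyamine oxidases was analysed here.

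The trichome patterning gene TRY, the only measured of 3 trichome markers, was set beside ALDH2C4. It read 8.26, 6.47 and 7.18 in Col-0 and 6.57, 8.81 and 6.70 in pmr5, so that pmr5 replicate 2 and Col-0 replicate 1 were the highest arrays for both genes. The r was 0.94 (exact permutation p = 0.00694, adjusted 0.4) and the rho 0.83 (exact permutation p = 0.0583, adjusted 0.74). Without these 2 arrays r was 0.51. ALDH2C4 ran opposite to GAPC2 with an r of -0.95 (exact permutation p = 0.00833, adjusted 0.4) and a rho of -0.77 (exact permutation p = 0.103, adjusted 0.74), and with an r of -0.86 without the same 2 arrays. Of the 144 pairs 8 had an unadjusted p under 0.05 for r and 0 an adjusted one. By the definition of p, a share of about 0.05 of unrelated pairs falls under 0.05, and 8 of 144 is near that share. With the smallest possible p of 0.00278, 1 pair alone could not pass here either, so the adjusted values cannot decide on these relations. The part of trichome cells in the spread of ALDH2C4 was not tested.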

How the data were processed

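The authors deposited log2 signals for each probe set, which they made with RMA and affy according to the submitters' processing notes; versions are not given in the sources used here. Replicates were deposited as separate arrays. The 64 Affymetrix control probe sets were left out of the tests. Names came from the platform annotation, with 13513 probe sets paired with 1 gene, 503 with several and 8730 unnamed here. Of those with 1 gene, 13436 matched RefSeq's TAIR10.1 table, used for locus codes only.

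All 22746 probe sets were fitted with lmFit and eBayes of limma 3.58.1 in R 4.3.3, pmr5 minus Col-0, without a block, and adjusted by Benjamini-Hochberg over all of them, at a threshold of 0.05. Tests were 2-sided. Standard errors and 95% intervals are limma's. A fold is 2 to the power of the log2 difference. Correlations used exact permutation over the 720 orders of 6 arrays, whose smallest p is 0.00278, for list genes with a mean over 0.5 above the lowest value. Arrays of both genotypes entered together, so r and rho hold genotype differences as well as the spread between replicates. The fit was tested on simulated data, whose outcome is not reported here. The number of arrays limits the precision.

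The members and lists were chosen with earlier results of these data known. The rule named every ALDH gene, up to 2 genes of each list by smallest p, and the 3 probe sets most like the most variable ALDH gene. IVD and the markers were named beside them after their values were seen. Alternatives were array weights, quantile normalization, a threshold of 0.1, leaving out each array, centring each array on its median, a robust prior with an intensity trend, the brighter 50% of probe sets, and a replicate block.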

Additional observations from a re-analysis of the deposited data

How the results depend on the processing

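The count of 0 ALDH genes past the threshold was the same in every alternative, and the lowest adjusted p of a member in limma was 0.407, for ALDH6B2 without pmr5 replicate 2. Over all probe sets the fit called between 0 and 13 with an array left out, the 13 without pmr5 replicate 2. ALDH6B2 (0.36 to 0.63), ALDH11A3 (0.18 to 0.37) and ALDH10A8 (0.04 to 0.17) kept their direction in all 12 alternatives of the fit. Many of these could not have changed it. The replicate block, the intensity trend with a robust prior and the limit to brighter probe sets leave a difference as it is. Leaving out or weighting arrays cannot reverse ALDH6B2 or ALDH11A3, whose groups did not overlap. For these genes only quantile normalization (0.44 and 0.30) and centred arrays (0.40 and 0.26) could have done so. With 1 array left out, the difference ranged from -0.20 to 0.14 for ALDH2C4, from -0.13 to 0.18 for ALDH3F1, from -0.58 to 0.46 for ALDH7B4, from -0.18 to 0.058 for ALDH10A9 and from -0.25 to 0.13 for ALDH22A1. With arrays centred on their medians ALDH2C4 was at -0.029 and ALDH3F1 at -0.025. With array weights ALDH2C4 was at -0.080, ALDH7B4 at 0.048, ALDH11A3 at 0.18 and ALDH22A1 at 0.18. The median difference of the members lay between -0.016 and 0.118 with an array left out. The count of 2 members with no overlap, whose alternatives were added after the data were seen, was 2 to 4 without an array in turn and 0 with centred arrays, beside shares of 10.1% to 27.9% and of 8.57% of the 16186 probe sets never at the lowest value. Leaving out an array can only keep or raise that count and those shares. The cause of the other shifts was not tested. With the replicate block the differences were as in the main fit and 0 probe sets passed. The labels do not say that the replicate numbers pair the arrays, so the main fit had no block. Deviations from the genotype means correlated at 0.12, -0.28 and 0.19 for same-numbered arrays and from -0.33 to 0.29 for the others. With 3 arrays a genotype these values cannot decide on pairing. A mean over several probe sets of a gene was not run, since each member had 1.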
